A study of Arabidopsis thaliana with 24 samples.

Results

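The small RNA profiles of ABA-treated abi1td and mkkk18 seedlings of *Arabidopsis thaliana* were set against each other, which compares loss of the ABI1 phosphatase with loss of a kinase that ABI1 regulates. The comparison rests on 6 of the 24 small RNA-seq libraries of the series, namely all 3 libraries labelled abi1td-ABA and all 3 labelled mkkk18-ABA, chosen by those labels. Seedlings of both lines were in the Columbia ecotype (Col-0), 2 weeks old, and treated with 100 µM ABA, dissolved in methanol, for 4 h. Each line carries a T-DNA insertion and is a single allele, labelled a Salk line mutant, with the mkkk18 line also described as mkkk18-1, and libraries were of whole seedlings. The mock libraries of the same lines (abi1td-Mock and mkkk18-Mock, 3 each) were used beside them. The WT Col-0 and mkkk17 libraries entered only where they are named. A small RNA library does not measure the ABI1 and MAPKKK18 mRNAs, so the disruption of either gene was not checked here. Each deposited table listed 350 mature miRNA sequences in RPM (reads scaled to a fixed library total), and 131 of them had a mean of at least 1 RPM over the 6 libraries and were tested.

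Abscisic acid (ABA) is the plant hormone of drought and salt stress. Its receptors, once bound to the hormone, block protein phosphatases of the PP2C group, of which ABI1 is a member, and this frees protein kinases that turn on the response. MAPKKK18 is a MAP kinase kinase kinase that works downstream of this core module, and ABI1 acts on it as a negative regulator. Mature miRNAs of plants guide cleavage or translational repression of mRNAs with nearly complementary sites. A hairpin precursor gives a 5p and a 3p strand, of which usually one accumulates.

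The sequences below are those of the 7 miRNAs whose 3 abi1td-ABA values lay all above or all below the 3 mkkk18-ABA values, followed by both arms of miR167c, the only miRNAs that passed the test between the lines in mock libraries. They are shown 5′ to 3′ as the tables give them, with T for U and with the seed, bases 2 to 8, in capitals.
miR2111b-3p: aTCCTCGGgatacagtttacc
miR396b-3p: gCTCAAGAaagctgtgggaaa
miR160c-3p: cGTACAAGgagtcaagcatga
miR399f: tGCCAAAGgagatttgcccgg
miR168b-3p: cCCGTCTTgtatcaactgaat
miR169f-3p: gCAAGTTGaccttggctctgc
miR822-5p: tGCGGGAAgcatttgcacatg
miR167c-5p: tAAGCTGCcagcatgatcttg
miR167c-3p: tAGGTCATgctggtagtttcacc

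Each of these 9 sequences matched TAIR10.1 without a mismatch at a single place, in the exon of the MIR gene of its own name. On chromosome 5 these were chr5:400464-400484 on the plus strand for miR2111b-3p and chr5:13611904-13611924 on the plus strand for miR396b-3p. The minus strand of the same chromosome held miR160c-3p at chr5:19009095-19009115, miR168b-3p at chr5:18358803-18358823 and miR822-5p at chr5:897287-897307, the last also inside an intron of the protein-coding gene AT5G03553 of the opposite strand. miR399f lay on the plus strand at chr2:14445084-14445104 and miR169f-3p on the minus strand at chr3:4805713-4805733. The arms of miR167c lay on the minus strand at chr3:1306750-1306770 for the 5p and chr3:1306630-1306652 for the 3p. Among the tested miRNAs, the seed of miR2111b-3p was shared with miR2111a-3p alone, and that of miR399f with miR399a, miR399b and miR399d. Relatives of the same arm are near copies in part, shown here because reads of near-identical sequences are the ones most easily confused.
miR399f: tGCCAAAGgagatttgcccgg
miR399a: tGCCAAAGgagatttgccctg
miR399d: tGCCAAAGgagatttgccccg
miR168b-3p: cCCGTCTTgtatcaactgaat
miR168a-3p: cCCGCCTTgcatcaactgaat
Of 21 bases, miR399f shared 20 with miR399a and 20 with miR399d, and miR168b-3p shared 19 with miR168a-3p.

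The 6 libraries held 6357465 to 11601274 clipped reads. A floor of 3 reads, a chosen value for counting error alone, corresponds to between 0.26 and 0.47 RPM of the clipped reads. The RPM totals that could be placed were lower than the clipped reads, so that the floor lay somewhat higher in those libraries. Between 167 and 208 of the 350 sequences were above 0 in a library. By a rule of RPM above 0 in at least 2 of 3 libraries, 184 sequences were detected in abi1td-ABA and 191 in mkkk18-ABA, with 172 in both. Of the 31 detected in only one line, 29 stayed under 1 RPM in each of the 6 libraries and the highest value was 1 RPM, so that at this depth no abundant miRNA was seen in one line alone.

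Both groups held a library that stood apart. The mean Euclidean distance of a library to the other 5, over log2(scaled RPM + 0.5) of the 131 miRNAs, was 12.3 for abi1td-ABA 2 and 10.2 for mkkk18-ABA 1, against 7.97 to 8.48 for the remaining 4. The first principal component took 58.0% of the variance and separated these libraries from the rest (scores of 8.72 for abi1td-ABA 2 and 3.90 for mkkk18-ABA 1, and -4.04 to -1.36 for the other 4). Its loadings followed the GC content of the mature sequence (r = 0.75 across 131 miRNAs, which share libraries and are not independent). For the log2 difference between the lines, the correlation with GC content was r = 0.02 across the same 131 miRNAs.

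**Figure D1:**
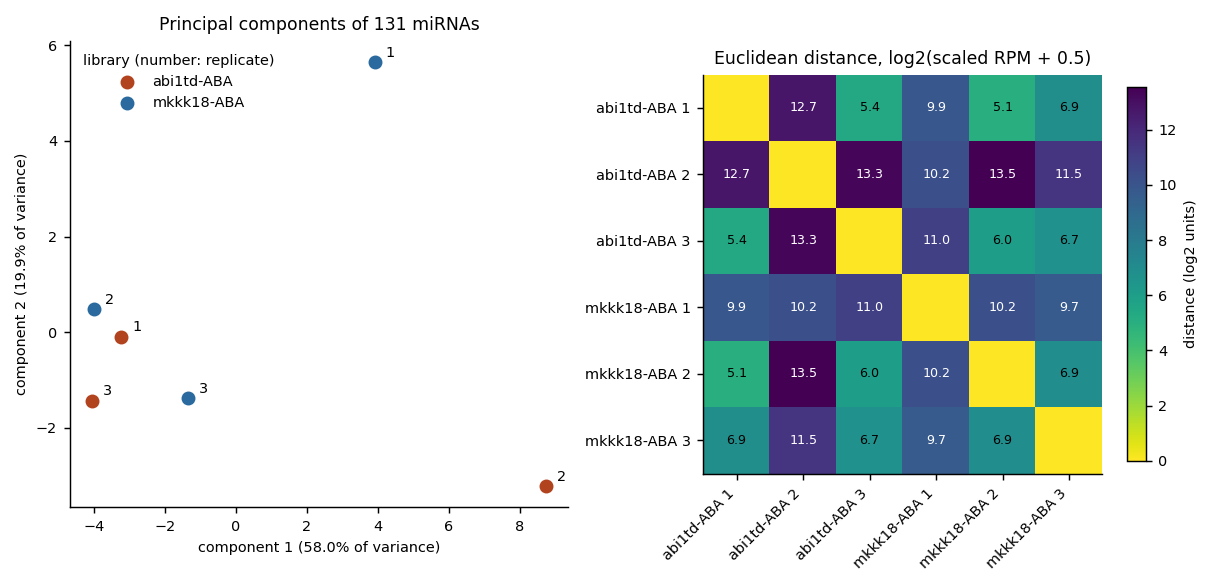
Left, scores of the 6 ABA libraries on the first and second principal components of 131 miRNAs (axes in log2 units). Right, Euclidean distance between each pair of libraries in log2 units. abi1td-ABA 2 and mkkk18-ABA 1 lie far from the other 4 libraries, whose points mix the lines.

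The miRNAs with the most negative loadings were miR161.2, which targets pentatricopeptide repeat genes, and miR844-3p, miR447a.2-3p, miR400 and miR779.2. Scaled RPM of miR161.2 were 105, 9.75 and 88.1 in abi1td-ABA 1, 2 and 3, against 46.4, 105 and 40.2 in mkkk18-ABA 1, 2 and 3. Its lowest value was thus that of abi1td-ABA 2, and the gap to abi1td-ABA 1 and 3 lay within 1 line. At the other end stood miR2111a-3p, miR472-3p, miR156f-3p, miR164b-5p and miR408-3p. Scaled RPM of miR472-3p, a trigger of small RNAs from immune receptor genes, were 124, 474 and 134 in abi1td-ABA, against 330, 122 and 211 in mkkk18-ABA. The high values were again those of abi1td-ABA 2 and mkkk18-ABA 1. Across 129 miRNAs, the deviation of abi1td-ABA 2 from the mean of the 6 libraries correlated at r = 0.81 with the ABA minus mock difference of WT Col-0, against 0.17 for mkkk18-ABA 1 and -0.67 to 0.03 for the other 4. These correlations are over miRNAs of the same libraries and are given as a description. What sets these libraries apart was not tested, and the counts of calls under ABA are also given without them.

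Libraries lay nearest to their own line in mock but mostly not under ABA. Under ABA, the mean distance was 10.5 among abi1td libraries, 8.94 among mkkk18 libraries and 8.97 between the lines, and for 4 of the 6 libraries the nearest library was one of the other line. In mock, the distances were 4.64 among abi1td, 4.83 among mkkk18 and 5.47 between the lines, and for 0 of the 6 libraries was the nearest one of the other line. Without abi1td-ABA 2 and mkkk18-ABA 1, the distances under ABA were 5.37 between the remaining abi1td libraries, 6.90 between the remaining mkkk18 libraries, and 6.15 between the lines on average.

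No miRNA passed the test between ABA-treated abi1td and mkkk18 seedlings. With limma and Benjamini-Hochberg adjustment, 0 of 131 miRNAs (0%) passed an adjusted p-value of 0.05, 2 of 131 (1.53%) had an unadjusted p-value under 0.05, and the lowest adjusted p-value was 0.997. The count stayed at 0 under each alternative, with 0 to 8 miRNAs at an unadjusted p-value under 0.05. Without abi1td-ABA 2 and mkkk18-ABA 1 it was also 0, with 6 of 130 under that unadjusted value.

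The estimates were small and their intervals wide. Log2 differences, abi1td-ABA minus mkkk18-ABA, ranged from -0.94 to 1.04, with 105 of 131 under 0.5 in size and 1 of at least 1. Their median was -0.12, with 43 miRNAs higher and 88 lower in abi1td-ABA. This split depends on the scaling between libraries, since with RPM as deposited the median was -0.36 with 24 higher and 107 lower, and levels are therefore reported relative to the scaled libraries. The 95% interval extended to a median of 0.94 on either side of the estimate, against 0.45 for the same comparison in mock libraries. It stayed within 1 of 0 on the log2 scale, that is within 2-fold, for 27 miRNAs under ABA, and reached beyond for 104. These intervals, not adjusted for the number of miRNAs, thus bounded the difference of log2(scaled RPM + 0.5) to 2-fold for 27 miRNAs only. Some of the 27 were low, such as miR447b at means of 0.97 in abi1td-ABA and 1.02 in mkkk18-ABA. For these the pseudocount shrinks the difference, and the fold change of the miRNA itself is not bounded in this way. miR159a, a regulator of MYB transcription factors, was one of the 27, at -0.13 (95% interval -0.84 to 0.57), and so was miR824-3p at 0.08 (-0.67 to 0.82).

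**Figure D2:**
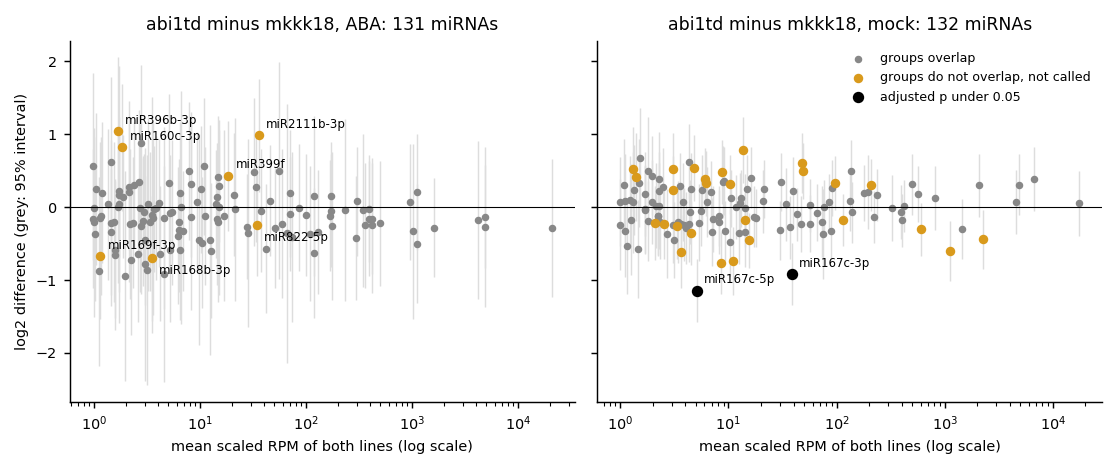
Log2 difference abi1td minus mkkk18 of each tested miRNA (points, with 95% intervals in grey) against its mean scaled RPM on a log axis, for ABA (left, 131 miRNAs) and mock libraries (right, 132 miRNAs). No point passes the threshold under ABA, and 2 do in mock; intervals are wider under ABA.

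The values of the groups did not overlap for 7 of 131 miRNAs (5.34%), 4 higher (3.05%) and 3 lower (2.29%) in abi1td-ABA, and none of the 7 passed the adjusted threshold. With RPM as deposited, 3 of these 7, namely miR2111b-3p, miR168b-3p and miR169f-3p, still did not overlap. In all, 8 of 131 (6.11%) did not overlap with RPM as deposited, 7 of them lower in abi1td-ABA. Which miRNAs belong to the set, and how many of them lie in each direction, thus depend on the scaling.

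miR2111b-3p had the lowest p-value. The miR2111 family accumulates under phosphate starvation and its 5p strand targets a kelch-repeat F-box mRNA, while the 3p is the opposite strand. Its scaled RPM were 37.4, 52.7 and 53.5 in abi1td-ABA, against 23.0, 19.0 and 30.2 in mkkk18-ABA. All 3 abi1td-ABA libraries lay above all 3 mkkk18-ABA libraries, at 47.9 ± 9.04 against 24.1 ± 5.67 scaled RPM (mean ± SD, n = 3 each). The log2 difference was 0.98 (SE 0.35, 95% interval 0.21 to 1.76), with an unadjusted limma p-value of 0.0179 and an adjusted one of 0.997, and it lay between 0.72 and 1.19 over 18 alternatives, with adjusted p-values from 0.161 to 0.999. Before scaling, the deposited RPM were 48.3, 36.2 and 45.7 in abi1td-ABA, against 26.8, 21.4 and 30.4 in mkkk18-ABA. The other ABA-treated genotypes had 44, 42.1 and 68.8 RPM in mkkk17-ABA and 25.5, 37 and 42.6 RPM in WT-ABA. In mock libraries it had 16.4, 23.6 and 15.7 scaled RPM in abi1td, against 15.9, 12.8 and 12.6 in mkkk18, and there the groups overlapped.

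The other entries of the miR2111 family had overlapping groups. miR2111a-3p, with the same seed, had 1.16, 5.67 and 2.46 scaled RPM in abi1td-ABA, against 7.63, 0.62 and 3.68 in mkkk18-ABA. miR2111a-5p, the 5p entry of the family, had 6.59, 3.64 and 7.49 scaled RPM in abi1td-ABA, against 5.83, 6.85 and 7.16 in mkkk18-ABA. The highest and the lowest value of miR2111a-3p were both in mkkk18-ABA, and the log2 differences were -0.11 for miR2111a-3p and -0.20 for miR2111a-5p.

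miR396b-3p is the strand opposite miR396b-5p, which represses the growth-regulating factors (GRFs). It had 2.33, 1.16 and 3.98 scaled RPM in abi1td-ABA, against 0.60, 0.89 and 1.09 in mkkk18-ABA. These are low values, and the lowest abi1td-ABA value was close to the highest of mkkk18-ABA. The log2 difference was 1.04 (SE 0.46, 95% interval 0.02 to 2.06), and 1.44 without abi1td-ABA 2. The limma p-value was 0.0467 unadjusted and 0.997 adjusted. In the RPM as deposited, 3, 0.8 and 3.4 in abi1td-ABA against 0.7, 1 and 1.1 in mkkk18-ABA, the groups overlapped. The abundant strand miR396b-5p had 158.9, 92.5 and 233 scaled RPM in abi1td-ABA, against 109, 203 and 265 in mkkk18-ABA, with a log2 difference of -0.26 (95% interval -1.27 to 0.75).

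miR160c-3p and miR399f made up the rest of the higher ones. miR160c-3p is the strand opposite the one that targets auxin response factors, and had 2.09, 2.18 and 3.16 scaled RPM in abi1td-ABA, against 0.77, 1.33 and 1.49 in mkkk18-ABA (log2 difference 0.82, 95% interval -0.06 to 1.69). The targeting strand, entered as miR160c-5p for 3 names, had overlapping groups and averaged 370 ± 78.5 scaled RPM in abi1td-ABA against 421 ± 139 in mkkk18-ABA (SD, n = 3 each). miR399f, a phosphate-starvation miRNA that represses the ubiquitin-conjugating enzyme PHO2, had 19.7, 21.97 and 21.6 scaled RPM in abi1td-ABA, against 12.3, 15.7 and 19.3 in mkkk18-ABA (log2 difference 0.43, 95% interval -0.32 to 1.19). The gap between its groups was small, since abi1td-ABA 1 was close to mkkk18-ABA 3. In the RPM as deposited neither miRNA had groups apart. There miR399f had 25.4, 15.1 and 18.5 in abi1td-ABA against 14.3, 17.7 and 19.4 in mkkk18-ABA, and the groups of miR160c-3p met at 1.5.

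Of the 3 lower ones, miR168b-3p comes from a precursor of miR168, the miRNA of AGO1, the main effector of miRNA silencing. It had 2.56, 1.75 and 3.39 scaled RPM in abi1td-ABA, against 4.20, 3.73 and 5.27 in mkkk18-ABA (log2 difference -0.70, 95% interval -1.56 to 0.16). The near copy miR168a-3p had 23.4, 38.0 and 37.2 scaled RPM in abi1td-ABA, against 45.2, 33.4 and 72.7 in mkkk18-ABA (log2 difference -0.57, 95% interval -1.45 to 0.31). Both 3p entries had a lower mean in abi1td-ABA, and only those of miR168b-3p did not overlap.

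miR169f-3p lies opposite a miR169 strand that targets NF-YA subunits, which act in drought responses. It had 0.70, 1.02 and 0.59 scaled RPM in abi1td-ABA, against 1.80, 1.24 and 1.49 in mkkk18-ABA (log2 difference -0.67, 95% interval -1.53 to 0.18), which is near the floor of 3 reads. miR822-5p, a young miRNA that targets mRNAs of DC1-domain proteins, had 33.7, 32.7 and 27.9 scaled RPM in abi1td-ABA, against 39.3, 36.5 and 35.7 in mkkk18-ABA (log2 difference -0.24, 95% interval -0.94 to 0.46). It had the smallest difference of the 7, and its groups overlapped in the RPM as deposited.

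**Figure D3:**
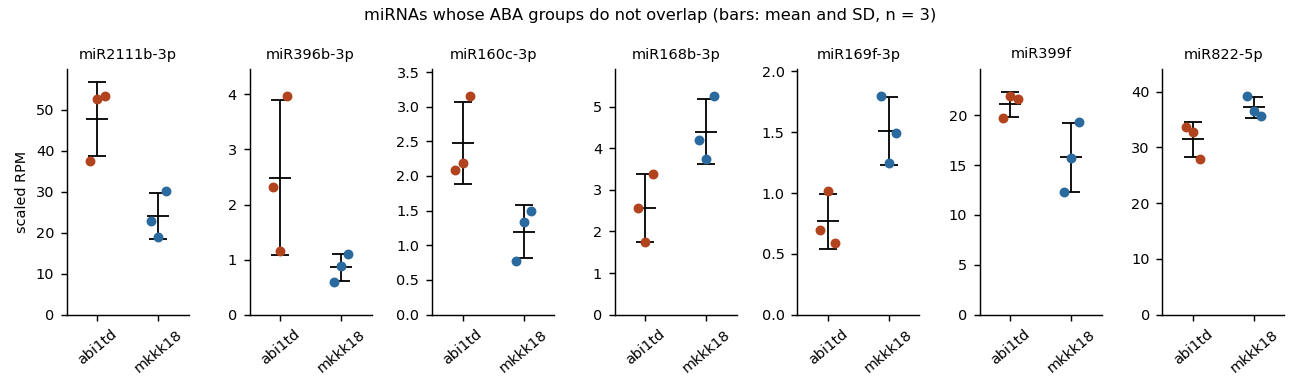
Scaled RPM of the 7 miRNAs whose abi1td-ABA (left in each panel) and mkkk18-ABA libraries do not overlap; points are libraries, bars are mean and SD of 3. Vertical axes start at 0 and differ between panels. Only miR2111b-3p, miR399f and miR822-5p lie above 10 scaled RPM.

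Summed by family, 0 of 68 families (0%) passed the adjusted threshold, and 0 had an unadjusted p-value under 0.05 with limma (0 to 6 under the alternatives, and 2 of 69 without abi1td-ABA 2 and mkkk18-ABA 1, with 0 called). The lowest p-value was that of miR2111, the sum of 3 sequences, with 45.2, 62.0 and 63.4 scaled RPM in abi1td-ABA against 36.4, 26.5 and 41.0 in mkkk18-ABA (log2 difference 0.71, 95% interval -0.03 to 1.45; adjusted p = 0.971). The groups of 3 of 68 families (4.41%) did not overlap, namely miR2111, higher in abi1td-ABA (1 of 68, 1.47%), and miR829 and miR822, lower (2.94%).

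The ratio of the 3p to the 5p arm of a hairpin was compared for 44 hairpins. Apart from the pseudocount of 0.5 RPM, it needs no scaling between libraries. Where an entry stands for the arms of several precursors, the ratio is not that of a single precursor. None passed the adjusted threshold (0%), and 2 of 44 (4.55%) had an unadjusted p-value under 0.05, those of miR396b and miR2111b. Without abi1td-ABA 2 and mkkk18-ABA 1, 0 of 43 were called and 3 had such a p-value. For miR396b the log2 ratio of 3p to 5p was -5.88, -5.62 and -5.68 in abi1td-ABA, against -6.73, -7.25 and -7.38 in mkkk18-ABA. The difference was 1.40 (95% interval 0.34 to 2.46; limma, adjusted p = 0.463), with a higher ratio in all 3 abi1td-ABA libraries. The minor 3p strand was low, however. In abi1td-ABA 2 it had 0.8 RPM as deposited, within the 0.7 to 1.1 RPM of mkkk18-ABA. There the higher ratio came with a lower 5p strand, at 63.6 RPM against 126.7 to 266.8 RPM in mkkk18-ABA. For miR2111b, whose 5p is shared with miR2111a, the log2 ratio was 2.44, 3.61 and 2.74 in abi1td-ABA, against 1.90, 1.42 and 2.00 in mkkk18-ABA (difference 1.16, adjusted p = 0.502). The groups of 5 of 44 hairpins (11.4%) did not overlap, and each of the 5 had a higher ratio in abi1td-ABA. The other 3 were miR160c, miR156c and miR171a, whose 5p entries also stand for other precursors.

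By role, none of 19 lists of miRNAs grouped by their known targets had a member that passed the test in either direction. Over all 131 tested miRNAs the median log2 difference was -0.12, and the list medians are read beside it. Auxin-related miRNAs (miR160, miR167 and miR393, which target auxin response factors and the TIR1/AFB receptors) had 11 members tested, 0 called, and a median of -0.02. Phosphate miRNAs (miR399, miR827 and miR2111) had 9 tested, 0 called and a median of -0.05, with values from -0.27 to 0.98 for miR2111b-3p. Copper miRNAs (miR397, miR398, miR408 and miR857, which repress laccases, copper superoxide dismutases and plantacyanin) had 9 tested, 0 called and a median of -0.05. In the last list the members lay on both sides, from -0.50 for miR398b-3p to 0.56 for miR398c-5p.

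The lists with the lowest medians were sulfate (miR395f alone, -0.64), miR169 (-0.49, 5 tested), and miR170 and miR171 (-0.45, 6 tested), which target GRAS transcription factors. Those of the silencing machinery (miR162, miR168 and miR403, which target DCL1, AGO1 and AGO2) had 7 tested, 0 called, a median of -0.33, and 6 of 7 below 0. miR165 and miR166, which restrict the class III HD-ZIP factors of leaf polarity, had 5 tested, 0 called, a median of -0.29, and all 5 below 0. Such counts are read beside all 131 tested miRNAs, of which 88 (67.2%) were below 0. All tested members were also below 0 in the lists of MYB and TCP regulators (4), NAC factors (3) and PPR genes (3). In these lists each 95% interval spanned 0, and miR165b (0.26) and miR166e-3p (0.10) changed sign without mkkk18-ABA 1. The median of the same lists in mock libraries was -0.30 for the silencing machinery and 0.05 for leaf polarity.

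**Figure D4:**
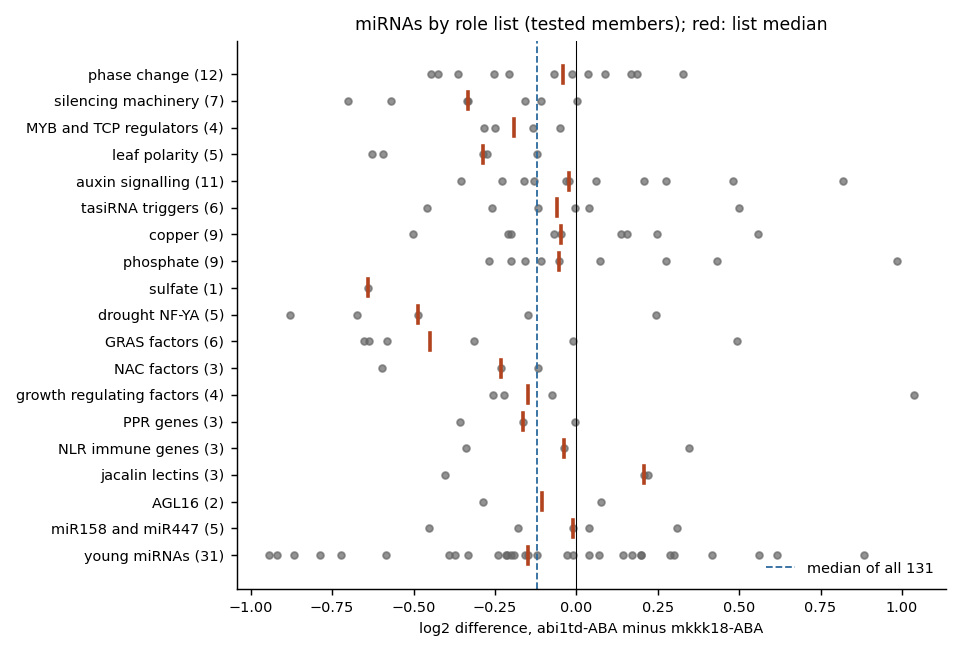
Log2 difference abi1td-ABA minus mkkk18-ABA of each tested miRNA (points), by role list, with the number tested in parentheses, the list median in red and the median of all 131 miRNAs (-0.12) as a dashed line. Points of every list lie within about 1 of 0 and none passed the test.

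The 5 most abundant miRNAs had overlapping groups. miR166e-3p, one entry for 7 names of the miR166 family whose sequence lies at 7 places in the genome, was the largest by mean RPM. Its scaled RPM were 12213, 23807 and 19629 in abi1td-ABA, against 35387, 14902 and 19708 in mkkk18-ABA. The groups overlapped, and mkkk18-ABA 1 held the highest value (log2 difference -0.29, 95% interval -1.23 to 0.65, and 0.10 without that library). In that library the deposited value was 41267 RPM, which is 52.7% of the summed RPM of all known miRNAs.

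miR159a averaged 4646 ± 349 scaled RPM in abi1td-ABA and 5148 ± 908 in mkkk18-ABA (SD, n = 3 each). miR159b-3p, of the same family, averaged 1433 ± 118 in abi1td-ABA and 1747 ± 187 in mkkk18-ABA, with a log2 difference of -0.28 (95% interval -0.96 to 0.39). miR165b, an entry for 2 names, averaged 4201 ± 1430 in abi1td-ABA and 5612 ± 3632 in mkkk18-ABA. miR158a-3p averaged 4243 ± 2572 in abi1td-ABA and 4204 ± 841 in mkkk18-ABA, and its lowest value, 1732, was that of abi1td-ABA 2. The large SD of miR165b in mkkk18-ABA came with a value of 9664 in mkkk18-ABA 1.

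The sum of RPM over the 350 sequences, before scaling, was 44853, 32336 and 40535 in abi1td-ABA, against 78277, 45027 and 45860 in mkkk18-ABA. The values did not overlap, but abi1td-ABA 1 and mkkk18-ABA 2 differed by little. The mean was 39241 ± 6358 RPM in abi1td-ABA and 56388 ± 18961 RPM in mkkk18-ABA (n = 3, SD; two-sided exact permutation p = 0.1, which is the lowest value 3 against 3 can reach). Without miR166e-3p the means were 22942 RPM in abi1td-ABA and 30436 RPM in mkkk18-ABA (two-sided exact permutation p = 0.3). The difference, abi1td-ABA minus mkkk18-ABA, was -17147 RPM over all 6 libraries, -6202 RPM without mkkk18-ABA 1, and -2750 RPM without both abi1td-ABA 2 and mkkk18-ABA 1, so that most of its size came with these libraries.

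Of 8 miRNAs picked because the text of the study names them for abi1td or mkkk18, 0 were called, and apart from miR2111b-3p their groups overlapped. miR824-3p comes from the precursor of miR824, which represses the MADS-box gene AGL16, and had 285, 333 and 298 scaled RPM in abi1td-ABA, against 403.3, 240 and 248 in mkkk18-ABA. Its ABA minus mock log2 difference was 1.67 in abi1td and 1.33 in mkkk18, and the difference between these responses was 0.34 (95% interval -0.40 to 1.09). For miR408-5p the scaled RPM were 14.3, 16 and 14.98 in abi1td-ABA, against 11.8, 16.2 and 13.3 in mkkk18-ABA, and for its opposite strand miR408-3p, which targets copper protein mRNAs, they were 241, 496 and 250 in abi1td-ABA, against 620, 228 and 233 in mkkk18-ABA. The high values of miR408-3p were those of abi1td-ABA 2 and mkkk18-ABA 1.

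miR397a, which targets laccases, had 7.44, 2.76 and 5.85 scaled RPM in abi1td-ABA, against 6.17, 6.49 and 3.58 in mkkk18-ABA. miR167a-3p had 830, 1711 and 1087 in abi1td-ABA, against 921, 984 and 1106 in mkkk18-ABA. For miR846-3p, which targets jacalin-related lectin mRNAs, the values were 93.8, 23.3 and 86.5 in abi1td-ABA, against 77.0, 96.9 and 59.4 in mkkk18-ABA. For these 3 miRNAs the value farthest from the others was that of abi1td-ABA 2, and their log2 differences were -0.07, 0.21 and -0.40, with none called. Without abi1td-ABA 2 all 3 changed sign, to 0.32 for miR397a, -0.06 for miR167a-3p and 0.26 for miR846-3p.

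In mock libraries the same lines did differ, in 2 miRNAs of the same hairpin. Of 132 miRNAs tested there, 2 (1.52%) passed the adjusted threshold with limma, miR167c-5p and miR167c-3p, both lower in abi1td, and 17 (12.9%) had an unadjusted p-value under 0.05. The miR167 family targets auxin response factors. miR167c-5p had 2.70, 2.99 and 3.22 scaled RPM in abi1td-Mock, against 6.56, 8.05 and 6.96 in mkkk18-Mock (log2 difference -1.15, SE 0.21, adjusted p = 0.00339). miR167c-3p had 24.7, 24.1 and 29.4 in abi1td-Mock, against 36.1, 53.5 and 62.4 in mkkk18-Mock (log2 difference -0.92, SE 0.20, adjusted p = 0.0179). The groups did not overlap for either arm. For the 3p the gap, from 29.4 to 36.1 scaled RPM, was small beside the SD of 13.4 in mkkk18-Mock. The call of miR167c-3p was lost without abi1td-Mock 1 (adjusted p = 0.0593) or abi1td-Mock 2 (adjusted p = 0.0825), and with a fit of all 24 libraries neither was called (adjusted p = 0.30 for the 5p and 0.928 for the 3p). The number called in mock ranged from 0 with that fit to 8 with the replicate number as a block, and 29 of 132 (22%) in mock had groups that did not overlap, against 7 of 131 under ABA.

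Under ABA neither arm passed the test. miR167c-5p had 4.19, 4.80 and 3.39 scaled RPM in abi1td-ABA, against 5.66, 2.67 and 3.88 in mkkk18-ABA (log2 difference 0.06, 95% interval -0.82 to 0.94). miR167c-3p had 22.01, 64.0 and 30.7 in abi1td-ABA, against 30.6, 16.9 and 30.2 in mkkk18-ABA (log2 difference 0.48, 95% interval -0.53 to 1.497). The groups overlapped for both arms, and the high value of the 3p was that of abi1td-ABA 2, without which its log2 difference was 0.070.

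**Figure D5:**
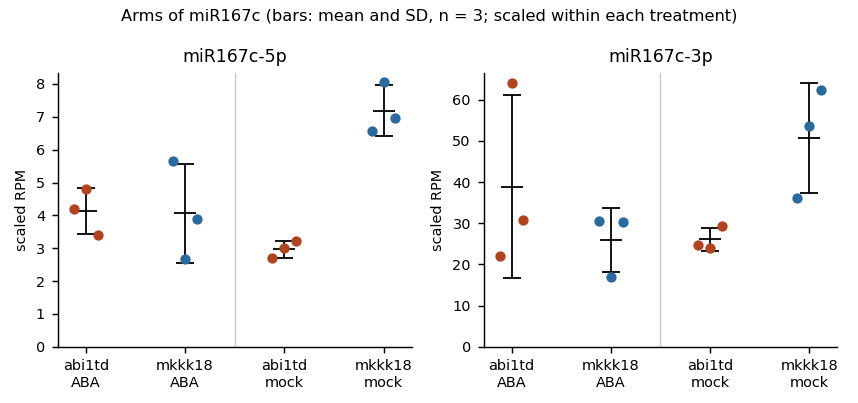
Scaled RPM of miR167c-5p and miR167c-3p by library in the ABA (left pair) and mock (right pair) groups, abi1td before mkkk18 in each pair; bars are mean and SD of 3. Values were scaled within each treatment, so heights compare only within a pair; the lines are apart in mock and overlap under ABA.

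The difference itself, the ABA response of abi1td minus that of mkkk18, was tested as an interaction over the 12 libraries. It passed the adjusted threshold for 0 of 132 miRNAs (0%), with 3 (2.27%) at an unadjusted p-value under 0.05, and the count was 0 under each alternative (1 to 15 at that unadjusted value). The 3 were both arms of miR167c and miR169f-3p. For miR167c-5p the ABA minus mock log2 difference was 0.57 in abi1td and -0.72 in mkkk18 (interaction 1.28, 95% interval 0.39 to 2.18; limma, adjusted p = 0.811). For miR167c-3p it was 0.61 in abi1td and -0.88 in mkkk18 (interaction 1.49, 95% interval 0.37 to 2.61; adjusted p = 0.811). The estimates had opposite signs in the 2 lines, but the interaction did not pass the correction. Without abi1td-ABA 2 and mkkk18-ABA 1 the values were 1.40 for the 5p (adjusted p = 0.147) and 1.18 for the 3p (adjusted p = 0.354).

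Deposited RPM of miR167c-5p in the other genotypes were 2.9, 3.5 and 2.2 in WT-ABA against 3.3, 5.1 and 5 in WT-Mock, and 4.8, 9.5 and 6.1 in mkkk17-ABA against 0.8, 0.5 and 3.3 in mkkk17-Mock. The mkkk18-Mock libraries, at 8.8, 9.1 and 6.9 RPM before scaling, held the highest values of the 4 mock groups. Across 127 miRNAs tested in both treatments, the abi1td minus mkkk18 difference under ABA and that in mock correlated at r = 0.02, a description over miRNAs that share libraries within each treatment.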

How the data were processed

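Small RNA was sequenced from 3 biological replicates per group. The authors clipped adapters, removed reads that were short, without adapter or of low base quality, catalogued miRNAs with mirPRo against miRBase, and deposited RPM values for each library, rounded to 1 decimal, with replicates kept apart. The total behind the RPM is not given in the sources used here, so count tests were not run. In 3 of the 6 ABA libraries the values below 100 RPM fell on whole reads of totals from 5714500 to 7203500. These totals are near 90% of the clipped reads of the study's length table. The totals searched did not reach 90% of the clipped reads of the remaining libraries, so the search could not have placed those. The authors used DESeq2 for their own comparisons, and those results were not used.

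RPM were divided by median-of-ratios factors ("scaled RPM"), taken within each fit. The abi1td-ABA factors were lower than those of mkkk18-ABA by 0.27 on the log2 scale on average. log2(scaled RPM + 0.5) was fitted, for miRNAs averaging 1 RPM or more, with limma 3.58.1 in R 4.3.3 (trended variance, Benjamini-Hochberg, threshold 0.05), over the 6 libraries of each treatment or the 12 for the interaction. The pseudocount shrinks differences of low miRNAs. Summed RPM were compared by exact permutation in SciPy 1.17.1. Sequences were matched to TAIR10.1 with its RefSeq annotation; the build used by the authors was not given in the sources used here. The fit was tested on simulated data with independent noise and without the GC-linked spread of the ABA libraries. That test therefore does not measure the power of the fit on these libraries.

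Named miRNAs were those called, those with non-overlapping ABA groups (up to 10), the 5 most abundant, 8 picked from those that the paper's text names for abi1td or mkkk18, and up to 3 called in mock or in the interaction. The members and lists were chosen with earlier results of these data known. Alternatives were RPM as deposited, trimmed-mean scaling, pseudocounts of 0.1 and 1, no filter, a mean of at least 5 RPM, a replicate block, a GC correction alone and with that block, robust moderation, all 24 libraries, and each library left out; leaving out abi1td-ABA 2 with mkkk18-ABA 1 was chosen after seeing the data. Labels call the replicates biological and say nothing of what libraries with the same number share.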

Additional observations from a re-analysis of the deposited data

How the results depend on the processing

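The counts of 0 called miRNAs, families and arm ratios under ABA, and of 0 called interactions, were 0 under every alternative run. The mock count of 2 was 4 with RPM as deposited, 4 with trimmed-mean scaling, 5 without a filter, 8 with the replicate block, 5 with the GC correction and that block, and 0 with 24 libraries, and 1 to 5 with 1 library left out. Deviations of same-numbered ABA libraries of the 2 lines correlated at -0.26 on average (-0.61 to 0.17), and those of mock libraries at 0.08 (-0.02 to 0.24). Between ABA and mock libraries of the same number they correlated at -0.07 (-0.12 to -0.01) in abi1td and 0.16 (-0.09 to 0.50) in mkkk18. These few values cannot settle whether libraries of the same number are paired. With the block, the ABA, interaction, family and arm counts were still 0.

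Of the 21 named miRNAs, 9 kept the sign of the ABA difference throughout, the 7 with non-overlapping groups among them, and 12 did not. For the 7 this carries little weight, since groups chosen for not overlapping can hardly change sign when libraries are left out. None of the 21 reached the threshold (limma, lowest adjusted p = 0.161). Signs turned with RPM as deposited for miR824-3p (-0.19), miR408-5p (-0.12), miR167a-3p (-0.059) and miR167c-5p (-0.17), and with trimmed-mean scaling for miR472-3p (0.0029). With the GC correction, alone or with the block, they turned for miR408-3p (0.042), miR397a (0.032) and miR472-3p (0.062), and with 24 libraries for miR408-3p (0.042), miR397a (0.0090) and miR472-3p (0.051). Without abi1td-ABA 2 and mkkk18-ABA 1 they turned for miR159a (0.0029), miR165b (0.031), miR158a-3p (0.24), miR408-3p (0.14), miR397a (0.46), miR167a-3p (-0.085) and miR846-3p (0.29). The cause was not tested. With 1 library left out, ranges were -0.51 to 0.10 for miR166e-3p, -0.66 to 0.26 for miR165b, -0.61 to 0.38 for miR158a-3p, -0.37 to 0.47 for miR408-3p, -0.65 to 0.35 for miR472-3p, -0.30 to 0.32 for miR397a, -0.058 to 0.49 for miR167a-3p, -0.72 to 0.26 for miR846-3p, -0.13 to 0.33 for miR167c-5p and -0.012 to 0.36 for miR824-3p. The range for miR167c-3p was 0.070 to 0.85. The summed-RPM difference of -17147 kept its sign but moved over 1.5 times: -22827 to -6202 with 1 library left out, -7493 without miR166e-3p and -2750 without abi1td-ABA 2 and mkkk18-ABA 1. The detected sequences of each line stayed within 1.5 times of their count, while those detected in abi1td-ABA alone, 12, were 5 when 1 RPM was required, and those in mkkk18-ABA alone, 19, were 10.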
